A study of Mus musculus with 150 samples.

Results

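The genes described here encode the axoneme, the microtubule core of the motile cilium, and the factors that assemble it. They were chosen by symbol: every row beginning with Dnah, Dnaic, Dnali, Dnaaf, Rsph, Tekt, Spag, Spef, Hydin or Cfap, together with Ccdc39, Ccdc40, Ccdc114, Ccdc151, Ccdc65, Drc1, Enkur, Odf3b and Fam183b. The rule found 71 genes among the 24341 rows of the bulk table and 79 genes among the 31175 gene rows of each single-cell table, and it used no measured value. A symbol is not a role. Spag5 (a mitotic spindle protein), Spag4, Spag7, Spag9, Spag11a and Spag11b match the rule without being known parts of the axoneme, and Dnah2os and Spag17os are opposite-strand transcripts present only in the single-cell tables; these are counted but named apart.

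Mouse lung epithelial cells labelled wild type or p53 knockout were measured by bulk RNA sequencing and by single-cell RNA sequencing. All bulk mice carried Scgb1a1-CreERTM and Rosa26-mT/mG, were 8 to 12 weeks old and received tamoxifen; 3 wild-type libraries (replicates 1, 5 and 6) had the p53+/+ genotype and 3 knockout libraries (replicates 7, 8 and 10) p53flox/flox. Tamoxifen activates a Cre driven by the promoter of Scgb1a1, the secretory protein of airway club cells, and the Cre turns on GFP and, in floxed mice, removes p53. The sorted cells were GFP+, EpCAM+, CD31/34/45- and 7AAD-. The titles name day 30 and the protocol 70 days after tamoxifen, and the genotype label reads p53-/-. The single cells, captured on Fluidigm C1 chips from mice given 250 mg/kg tamoxifen, comprise 66 kept wild-type cells and 61 kept cells labelled p53-/-; whether their deletion was full or induced is not clear. The labels do not tie libraries to animals; the p-values thus rest on a spread among libraries that could be technical.

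Trp53, the targeted gene, was at 16.6, 22.2 and 21.7 FPKM in wild-type replicates 1, 5 and 6 and at 8.63, 9.98 and 7.56 FPKM in knockout replicates 7, 8 and 10, lower in every knockout library (log2 fold change -1.12, SE 0.149, limma adjusted p = 0.144, and 0.00982 without wild-type replicate 1). FPKM counts fragments relative to transcript length and to the mapped total, so that levels of genes can be compared; a whole-gene level of Trp53 also counts exons that the deletion leaves. In the single cells Trp53 reached a TPM of 1 in 6.06% of wild-type cells (4 of 66) and 26.2% of those labelled knockout (16 of 61). The share was thus larger in the cells labelled knockout, as it was for 71.4% of all detected genes. Those cells also had more genes detected (median 3580, against 3130.5 in wild type). A whole-gene TPM, too, would count exons that a deletion leaves. Whether those cells lack p53 was not tested, and they are called by their label throughout. Wild-type replicate 1 stands apart from the other wild-type libraries in cell type markers. Its summed FPKM over the 5 club cell markers with values was 11624, against 58948 and 58218 in replicates 5 and 6 and 31282 to 47405 in knockout. Over 5 alveolar type 2 markers it was 7366, against 3161 to 3945 in the other libraries, and over 5 goblet cell markers 70.8, against 799 and 1149 in replicates 5 and 6 and 399 to 1080 in knockout. Over 6 immune markers the sums were 2209, 956 and 1339 in wild-type replicates 1, 5 and 6 and 628, 773 and 589 in knockout. Most of each sum was Cd74, at 2153, 897 and 1259 FPKM in wild type and 583, 748 and 559 FPKM in knockout. The other immune markers were highest in wild-type replicate 5 or 6. Each of the 6 was lower in every knockout library than in every wild-type library, which 10.2% of all tested genes also were. Without wild-type replicate 1, Cd52 and Coro1a of these were called lower (limma adjusted p = 0.022 and 0.0402), beside the members called higher there; their part in the members' values was not tested. The 4 basal cell markers were each below 1 FPKM in all libraries. The counts over members, and the calls that change, are therefore given with and without wild-type replicate 1.

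A motile cilium beats because dynein motors slide neighbouring microtubule doublets past each other. Outer and inner dynein arms supply the force, radial spokes and the central pair regulate it, the nexin-dynein regulatory complex links the doublets, and tektins and other proteins line the inside of the doublets. In the lung these structures are found on the multiciliated cells of the airways, which can arise from club cells, and their genes are switched on together by a program that includes the transcription factors FOXJ1 and RFX. Mutations in many of these genes cause primary ciliary dyskinesia.

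RFX proteins bind the X-box, built from half-sites GTTGCC, so the members' promoters were searched for it as a feature that the choice by symbol did not use. RefSeq promoter windows (GRCm38.p6, 250 bases before to 50 after a start) were found for 66 of the 79 genes, with 74 windows in all. The half-site, searched on both strands, was present in 36.5% of these windows, in 25 genes, and in 12.5% of all 32851 windows. It lay before the start in 19 of the members for which a stretch was extracted, and within 100 bases of the start in 15. The spaced pair of half-sites, GTTNCC, 2 free bases and GGNAAC, whose N positions are open so that it need not hold GTTGCC, was present in 1.35% of member windows, that of Ccdc151 alone, and in 0.451% of all. The forkhead core TGTTTAC was present in 5.41% of member windows and 3.65% of all, and the p53 response element in 0 of 74 member windows and in 3 of 32851. The p53 element was searched as its full consensus, with no gap and no mismatch. At a match this rare, 0 in 74 windows says nothing on p53 sites in the members. A match is a description of these letters and not a measured binding site. By part, a half-site was found in 7 of 12 central pair genes with a window, 3 of 5 tektins, 4 of 9 inner arm heavy chains, 4 of 8 genes of the microtubule interior and tip, 1 of 6 radial spoke genes and 0 of 5 outer arm heavy chains. The stretches below belong to members whose bulk values are described further on; each is the gene's own strand, 5′ to 3′, with the half-site or its reverse complement (for Ccdc151 the spaced pair) in capitals.
Fam183b, chr11:58801961-58801996, minus strand: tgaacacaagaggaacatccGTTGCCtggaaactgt
Tekt1, chr11:72361883-72361917, minus strand: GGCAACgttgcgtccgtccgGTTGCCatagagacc
Tekt2, chr4:126325685-126325730, minus strand: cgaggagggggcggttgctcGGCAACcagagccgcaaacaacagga
Dnaic2, chr11:114727373-114727418, plus strand: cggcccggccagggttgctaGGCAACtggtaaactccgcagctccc
Dnah10, chr5:124725045-124725084, plus strand: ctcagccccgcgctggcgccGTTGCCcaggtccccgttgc
Drc1, chr5:30281362-30281392, plus strand: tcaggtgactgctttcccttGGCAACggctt
Dnaaf2, chr12:69198430-69198458, minus strand: ctcctcccaggcgttactatGGCAACaaa
Enkur, chr2:21205374-21205419, minus strand: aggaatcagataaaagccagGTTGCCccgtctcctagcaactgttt
Cfap20, chr8:95434938-95434983, minus strand: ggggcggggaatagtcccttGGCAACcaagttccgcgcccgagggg
Ccdc151, chr9:22002635-22002688, minus strand: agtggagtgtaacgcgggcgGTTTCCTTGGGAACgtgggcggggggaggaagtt

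In the bulk libraries the members were low together in wild-type replicates 5 and 6 and high together in the other 4 libraries, wild-type replicate 1 included. The titles of wild-type replicates 5 and 6 end in an S-number that the titles of the other 4 libraries lack, and the labels do not explain it. A fit without wild-type replicate 1 thus sets libraries with this suffix against libraries without it. The part of whatever the suffix marks in the members' levels was not tested. Of the 71 members in the table, 57 passed the filter of at least 1 FPKM in at least 3 of 6 libraries. Of these, 42 were at 1 FPKM or more in all 6 libraries, while 11 were below 1 FPKM in both wild-type replicates 5 and 6 and so passed through the libraries where they are high. The summed FPKM of the 57 was 742.9, 338.9 and 342.6 in wild-type replicates 1, 5 and 6 and 855.7, 1054.7 and 693.1 in knockout replicates 7, 8 and 10. Wild-type replicates 5 and 6 were below all 4 other libraries in 52 of 57 members (91.2%), an order that 12.4% of all 11957 tested genes showed. The highest level was in knockout replicate 8 for 46 of 57 members (80.7%, against 14.8% of all tested genes), and wild-type replicate 1 was above knockout replicate 10 for 45 (78.9%, against 50.1%). The median ratio of wild-type replicate 1 to the mean of replicates 5 and 6 was 4.25 over the 57 members and 0.995 over all genes, and that of the knockout mean to the same 2 libraries was 4.71 and 0.990. Against wild-type replicate 1, the median ratio of the knockout mean was 1.13 over the members and 1.02 over all genes. The FPKM summed over all genes with values was lowest in wild-type replicate 1. It was 424751 there, 544778 and 581094 in replicates 5 and 6, and 485641 to 550245 in knockout. Ratios of knockout to wild-type replicate 1, here and below, would thus be smaller on a common sum. In bulk samples, fewer cells of a type and less RNA per cell cannot be told apart.

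Foxj1, the transcription factor of motile cilium formation and no member itself, had the same order: 18.6, 5.52 and 5.12 FPKM in wild-type replicates 1, 5 and 6 and 22.6, 32.9 and 22.04 FPKM in knockout replicates 7, 8 and 10. The 7 ciliated cell markers summed to 612, 187 and 192 FPKM in wild type and 721, 967 and 565 FPKM in knockout. All 7 had values above the table's lowest. The part of cell composition in the members' levels was not tested.

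**Figure D1:**
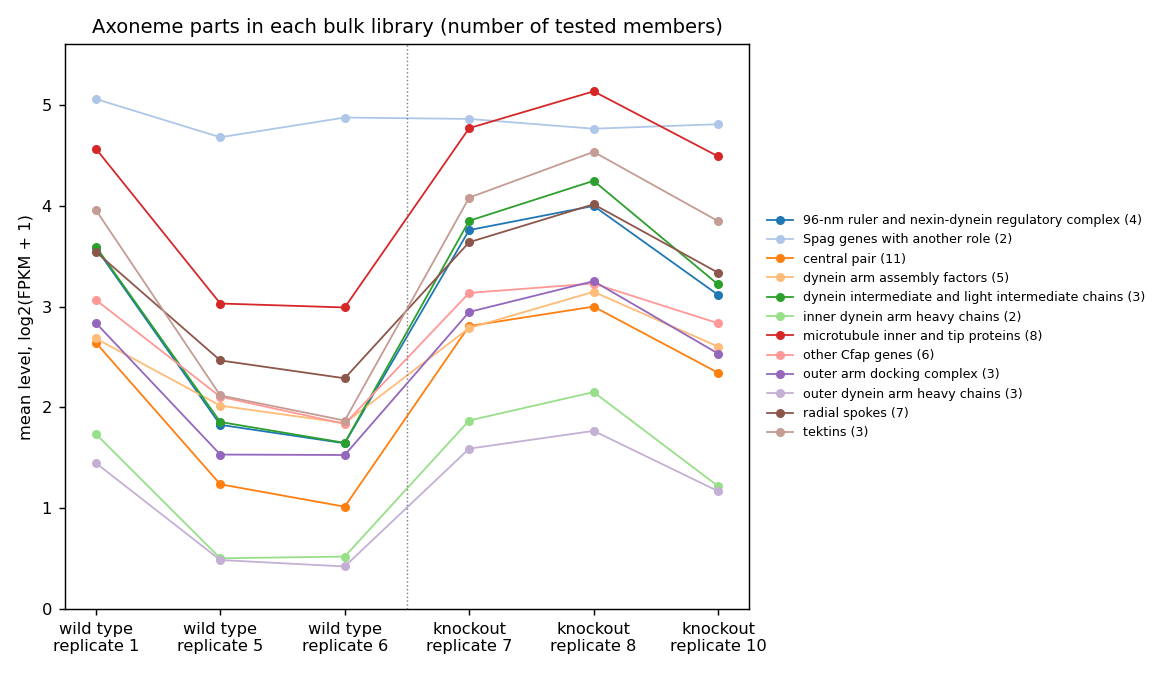
Mean log2(FPKM + 1) of the tested members of each axoneme part (vertical axis) in each of the 6 bulk libraries (horizontal axis); lines join the values of 1 part and the number of tested members stands in the legend. In each part except the Spag genes with another role, wild-type replicates 5 and 6 lie below the other 4 libraries.

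With all 6 libraries, 0 of 57 members passed the threshold of a limma adjusted p under 0.05, where 1 of 11957 genes (0.00836%) did. At an unadjusted p under 0.05, 36 members were higher in knockout, against 7.04% of all genes, and 0 were lower, against 6.06%. After rescaling each library to a common sum, 9 of the 57 were higher at that limit, against 3.31% of all genes. A positive fold change was found for 53 of 57 members (52 after quantile normalization), against 51.5% of all genes. The median log2 fold change was 1.07 over the members and 0.01 over all genes. In 11 members every knockout library was above every wild-type library (9.04% of all genes), and in 1 member, Cfap97, every knockout library was below (10.2% of all genes). The count of 11 was 0 after the FPKM of each library were rescaled to a common sum (5.73% of all genes) and 42 without knockout replicate 10 (14.7% of all genes). With estimated library weights, which gave wild-type replicate 1 a weight of 0.236 and replicate 5 a weight of 4.06, 49 members were called higher (5.47% of all genes).

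Without wild-type replicate 1 the count of members called was 42 of 57, each higher in knockout, where 2.82% of all genes were called higher; 0 members were called lower, against 0.594% of all genes. The median log2 fold change was then 1.53, and in 53 members all knockout libraries were above both remaining wild-type libraries (18.3% of all genes). These counts and the median include the 11 members that passed the filter through the libraries where they are high, 7 of which were called, and are no support for those 11; 35 of the other 46 were called. A split by the mean over all 6 libraries was chosen after seeing the data. It does not use the group labels, but the libraries where the members are high weigh most in it. Rsph14, for example, has a mean of 6.04 FPKM with 1.62 and 0.983 FPKM in wild-type replicates 5 and 6. The split is thus a description and no separate support. Of 34 members with a mean of at least 5 FPKM, 28 were called higher and 0 lower. Of the 8550 genes of that level, 2.43% were called higher. The median log2 fold change of the 34 members was 1.84. Leaving out any other library gave 0 members called, with median log2 fold changes from 0.79 to 1.24. The number of calls thus depends on the weight of this 1 library.

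**Figure D2:**
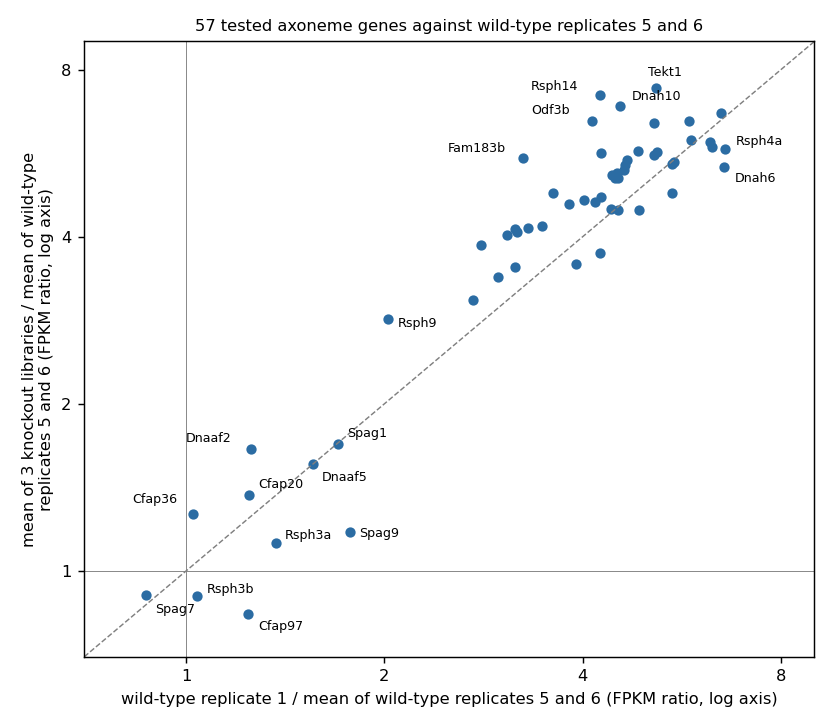
Each point is 1 of the 57 tested members; the horizontal axis gives the FPKM ratio of wild-type replicate 1 to the mean of wild-type replicates 5 and 6, the vertical axis that of the mean of the 3 knockout libraries to the same mean, both on log axes, and the dashed line marks equal ratios. Most members lie near the dashed line at ratios of 3 and more (medians 4.25 and 4.71), while Spag7, Rsph3b, Cfap97, Cfap36 and Cfap20 lie near 1.

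The dynein heavy chains, the motors themselves, were low in level. Dnah5, an outer arm heavy chain, was at 2.08, 0.446 and 0.456 FPKM in wild-type replicates 1, 5 and 6 and at 2.34, 3.21 and 1.57 FPKM in knockout replicates 7, 8 and 10. Wild-type replicate 1 lay between the knockout libraries, so the groups overlapped (log2 fold change 0.83, SE 0.339, limma adjusted p = 0.375, and 0.0374 without wild-type replicate 1). Dnah9, a further outer arm chain, was at 2.26, 0.387 and 0.336 FPKM and at 2.67, 2.51 and 1.26 FPKM, and Dnah11 at 1.03, 0.379 and 0.245 FPKM and at 1.23, 1.68 and 0.969 FPKM. Of the inner arm heavy chains, Dnah6 was at 4.05, 0.559 and 0.676 FPKM in wild type and at 3.51, 4.51 and 1.87 FPKM in knockout. Dnah10, which pairs with another heavy chain in a 2-headed inner arm, was at 1.203, 0.294 and 0.233 FPKM and at 1.97, 2.59 and 0.892 FPKM. Without wild-type replicate 1, 2 of the 3 outer and 1 of the 2 inner heavy chains tested were called higher; all 5 were under 1 FPKM in wild-type replicates 5 and 6 and passed the filter through the other libraries, so these calls are given as a description. The untested heavy chains were lower still: Dnah8, known from the testis, and Dnah17 were below 0.2 FPKM in all 6 libraries, whereas Dnah1 ranged from 0.148 FPKM in wild-type replicate 6 to 1.23 FPKM in knockout replicate 8. Dnah7a and Dnah7b have near-identical copies, and their split of reads is uncertain.

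Dnaic1 and Dnaic2, the intermediate chains at the base of the outer arm, and Dnali1, a light intermediate chain of the inner arms, had log2 fold changes of at least 1.24, against 0.59 to 0.84 for the tested heavy chains; the log2(FPKM + 1) scale understates the change of low genes such as the heavy chains. Dnaic2 was at 9.31, 2.56 and 1.81 FPKM in wild type and at 12.6, 15.9 and 8.61 FPKM in knockout (1.47, SE 0.483, limma adjusted p = 0.328, and 0.0124 without wild-type replicate 1). Only knockout replicate 10 fell below wild-type replicate 1. Dnali1 was at 19.2, 4.09 and 3.80 FPKM and at 23.9, 30.7 and 13.02 FPKM. All 3 were called higher without wild-type replicate 1, with log2 fold changes of 1.84 for Dnaic1, 2.04 for Dnaic2 and 2.17 for Dnali1. The docking complex, which anchors outer arms to the doublet, followed the same order. Ccdc114 was at 8.10, 2.88 and 3.06 FPKM and at 10.1, 10.8 and 6.46 FPKM. Cfap53, which the list of parts used here groups with this complex, was at 4.97, 1.18 and 1.16 FPKM and at 4.59, 5.85 and 2.71 FPKM. Ccdc151, whose promoter holds the spaced pair shown above, did not overlap, at 5.73, 1.86 and 1.75 FPKM in wild type and 6.39, 9.63 and 6.03 FPKM in knockout.

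The dynein arm assembly factors, cytoplasmic proteins that preassemble the motors, had smaller fold changes: their median on the log2 scale was 0.50, and 0.59 without wild-type replicate 1, with 1 of 5 then called. Dnaaf2 had a small p among the members. It was at 4.32, 3.39 and 3.51 FPKM in wild type and at 5.39, 6.47 and 5.26 FPKM in knockout, without overlap and at a ratio of knockout to wild-type means of 1.53 (log2 fold change 0.50, SE 0.134, limma adjusted p = 0.308, and 0.0672 without wild-type replicate 1). Of its merged exon bases 38.7% are shared with other genes on the same strand and 32.7% with genes on the opposite strand in GENCODE M21, so its level is uncertain. Dnaaf3 did not overlap either, at 5.16, 2.15 and 1.53 FPKM and at 5.58, 9.95 and 5.82 FPKM, and was the assembly factor called without wild-type replicate 1. Dnaaf5 was at 14.1, 10.2 and 7.89 FPKM and at 12.9, 16.2 and 13.2 FPKM.

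Ccdc39 and Ccdc40 form the molecular ruler that sets the repeat along each doublet, and Drc1 and Ccdc65 belong to the nexin-dynein regulatory complex. Ccdc40 was at 12.03, 2.15 and 1.97 FPKM in wild type and at 12.8, 15.6 and 8.60 FPKM in knockout, and Ccdc39 at 9.88, 2.60 and 2.03 FPKM and at 12.6, 12.9 and 7.10 FPKM. Drc1 was at 15.1, 3.83 and 3.01 FPKM and at 15.7, 20.9 and 9.54 FPKM. In these 3 genes wild-type replicate 1 lay above knockout replicate 10 and below the others. All 4 genes of this part were called higher without wild-type replicate 1, at a median log2 fold change of 1.82, against 1.24 with it. In GENCODE M21, 16.9% of the exon bases of Ccdc39 are shared with Ttc14 on the opposite strand.

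Among the radial spokes, Rsph1, a spoke head protein, was at 44.96, 13.9 and 9.64 FPKM in wild type and at 53.9, 71.2 and 36.8 FPKM in knockout, and Rsph4a, also of the head, at 16.8, 3.58 and 1.53 FPKM and at 16.1, 19.1 and 8.97 FPKM. Both overlapped. Rsph14 was at 5.53, 1.62 and 0.983 FPKM in wild type and at 8.30, 12.8 and 6.96 FPKM in knockout, with no overlap, and its knockout mean was 1.69 times wild-type replicate 1 (log2 fold change 1.64, SE 0.446, limma adjusted p = 0.308, and 0.0124 without that library). Rsph9, of the spoke head, was at 38.9, 17.7 and 20.7 FPKM and at 56.8, 66.4 and 40.1 FPKM, also without overlap (1.104, SE 0.311, limma adjusted p = 0.312, and 0.019 without wild-type replicate 1). Rsph3a and Rsph3b, near-identical copies of a spoke stalk gene, did not follow the order. Rsph3b was at 5.02, 4.23 and 5.42 FPKM in wild type and at 3.84, 4.75 and 4.43 FPKM in knockout, and the fold change of Rsph3a was 0.01. Without wild-type replicate 1, 4 of the 7 tested spoke genes were called higher.

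Tektins are filaments inside the doublets. Tekt1, on chromosome 11 from 72344722 to 72362442 (GENCODE M21, mm10), was at 21.7, 4.92 and 3.48 FPKM in wild type and at 31.8, 39.3 and 22.2 FPKM in knockout. It had the largest log2 fold change of the 57 members, 1.89 (SE 0.585, limma adjusted p = 0.316), and 2.61 without wild-type replicate 1 (SE 0.243, limma adjusted p = 0.00982). The groups did not overlap, but knockout replicate 10 and wild-type replicate 1 lay close. Tekt2 was at 9.85, 2.58 and 2.32 FPKM and at 10.8, 14.8 and 8.59 FPKM, and Tekt4 at 14.2, 2.88 and 2.29 FPKM and at 11.4, 18.4 and 12.3 FPKM; both overlapped. All 3 were called higher without wild-type replicate 1. Tekt3 and Tekt5 were below 1 FPKM in all 6 libraries. Of the exon bases of Tekt2, 20.8% are shared with a gene on the opposite strand.

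The proteins of the microtubule interior and tip included members of the smallest p. Fam183b, which lines the doublet interior, on chromosome 11 from 58792797 to 58801960, was at 50.5, 15.9 and 15.2 FPKM in wild type and at 80.1, 117 and 62.1 FPKM in knockout, with no overlap (log2 fold change 1.81, SE 0.468, limma adjusted p = 0.308, and 0.0113 without wild-type replicate 1). Its knockout mean was 1.71 times wild-type replicate 1, the largest such ratio of the 57. Odf3b, on chromosome 15 from 89377449 to 89379282, was at 23.5, 5.22 and 6.14 FPKM in wild type and at 33.01, 47.01 and 30.03 FPKM in knockout (1.85, SE 0.507, limma adjusted p = 0.308, and 0.0088 without wild-type replicate 1), a ratio of 1.56 to wild-type replicate 1. Enkur, an adaptor of the doublet interior, did not overlap either, at 12.6, 3.73 and 3.23 FPKM and at 15.9, 19.9 and 14.3 FPKM. Cfap20, a conserved protein of the inner doublet junction, was high in all libraries, at 79.2, 61.3 and 65.96 FPKM in wild type and 84.04, 85.9 and 91.04 FPKM in knockout. Without wild-type replicate 1, 7 of 8 genes of this part were called higher, Cfap20 being the exception (limma adjusted p = 0.0594).

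All 11 tested central pair genes overlapped between the groups with 6 libraries, and 10 were called higher without wild-type replicate 1. Of these genes, Cfap221, Cfap46, Cfap74, Spag17 and Hydin were under 1 FPKM in wild-type replicates 5 and 6. They passed the filter through the other libraries, so the calls among them are given as a description. Spag16 and Spag6 are proteins of the central apparatus needed for ciliary beating. Spag16 was at 8.28, 2.48 and 1.18 FPKM in wild type and at 9.54, 11.3 and 7.14 FPKM in knockout, and Cfap69 at 9.41, 2.35 and 1.71 FPKM and at 11.8, 13.6 and 7.45 FPKM. The row named Spag6 was at 17.7, 4.76 and 3.72 FPKM and at 18.2, 26.03 and 14.6 FPKM. That row lies on chromosome 16, the place of Spag6l in GENCODE M21, while the row named Spag6l lies on chromosome 2 and reached 0.162 FPKM at most; the names of these near-identical copies are thus exchanged between the sources. Hydin, a very large projection protein, was at 1.64, 0.341 and 0.224 FPKM and at 2.01, 2.49 and 0.983 FPKM, and was the central pair gene not called (limma adjusted p = 0.0741 without wild-type replicate 1).

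**Figure D3:**
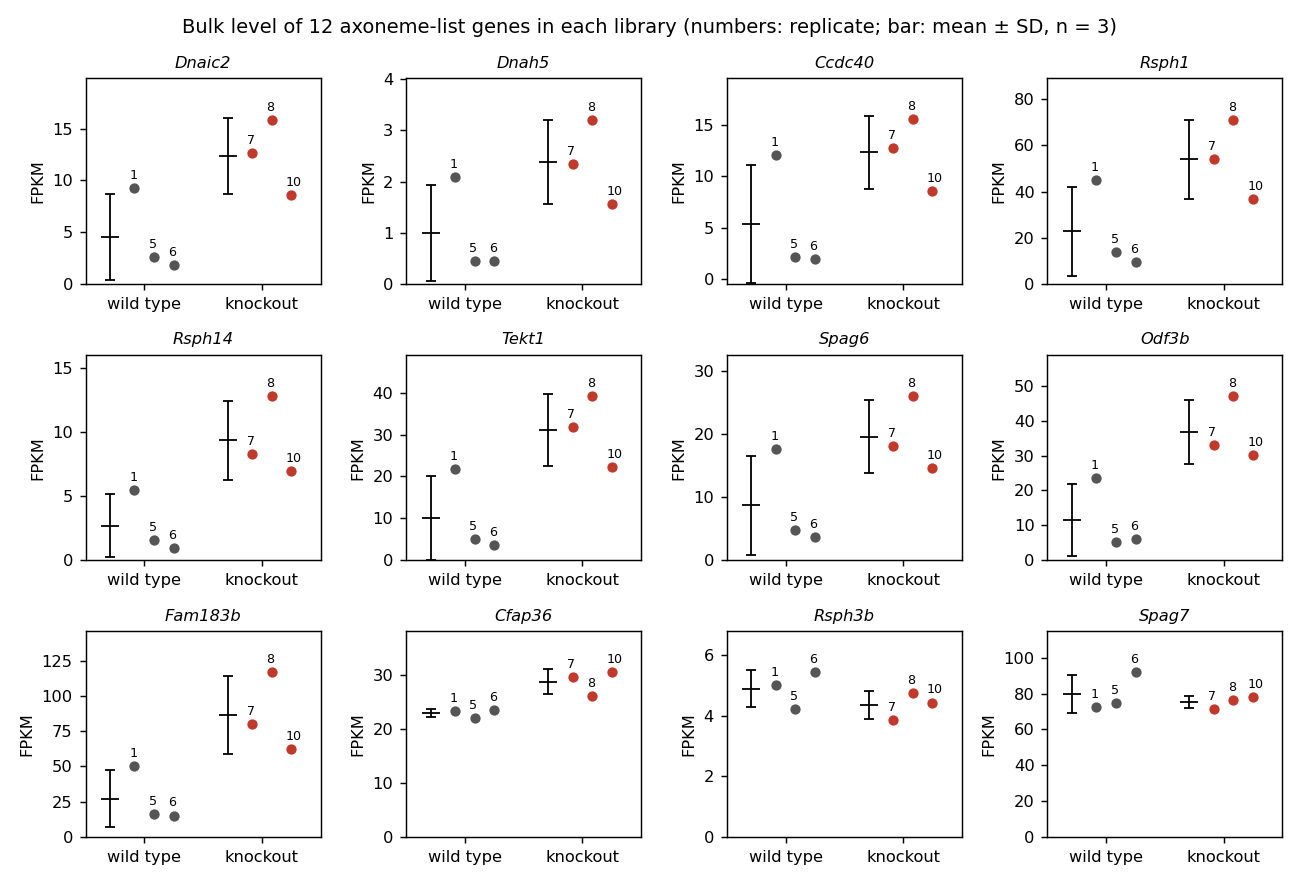
FPKM of 12 genes (vertical axes, each with its own scale) in each bulk library by genotype (horizontal axes); points carry the replicate number and bars give the mean ± SD of 3 libraries. In Dnaic2, Dnah5, Ccdc40, Rsph1 and Spag6 wild-type replicate 1 lies above knockout replicate 10, in Rsph14, Tekt1, Odf3b and Fam183b below it, and Cfap36, Rsph3b and Spag7 show no such gap between wild-type libraries.

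The 5 members outside the shared order were Cfap36, Cfap97, Spag7, Rsph3a and Rsph3b. Cfap36, a binding partner of ARL-family GTPases, was at 23.3, 21.97 and 23.4 FPKM in wild type and 29.6, 26.1 and 30.4 FPKM in knockout, so wild-type replicate 1 did not stand apart there (log2 fold change 0.31, SE 0.094, limma adjusted p = 0.312, and 0.175 without it). Cfap97 ran the other way, at 7.39, 6.41 and 5.52 FPKM and at 5.31, 4.36 and 5.32 FPKM (-0.31, SE 0.137, limma adjusted p = 0.397, and 0.487 without wild-type replicate 1), and its groups overlapped after rescaling to a common sum. Spag7 was at 72.4, 74.6 and 91.8 FPKM and at 71.3, 76.5 and 78.1 FPKM, with wild-type replicate 6 highest. Spag9, a scaffold of stress kinase signalling, kept the shared order but was highest in wild-type replicate 1, at 14.1, 7.64 and 8.23 FPKM and at 10.6, 8.49 and 8.89 FPKM. The fold changes of Cfap97, Rsph3b, Spag7 and Spag9 were the 4 negative values among the 57, and Spag9's was positive without wild-type replicate 1 (0.20). Cfap43, of the remaining Cfap genes, was at 5.15, 1.47 and 1.88 FPKM and at 7.35, 8.49 and 4.46 FPKM. Of the 14 members not tested, Rsph6a and Spag11a were at the table's lowest value in all libraries, and Spag5 was at 0.319 to 1.43 FPKM.

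Across the 57 members, the profile of log2(FPKM + 1) in wild-type replicate 1 had Pearson correlations of 0.964 to 0.980 with those of the knockout libraries, 0.901 with wild-type replicate 5 and 0.863 with replicate 6. These are correlations across genes, which are not independent replicates, and every profile shares the genes' own level differences.

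Other cilium genes that the choice by symbol leaves out followed the members. Their list includes the 7 ciliated cell markers given above, so the results for the list and for the markers are not separate. Of 80 listed, 61 were tested, 60 had positive fold changes (median 1.09 on the log2 scale), and 0 were called with 6 libraries; 39 were higher and 0 lower at an unadjusted p under 0.05, against 7.04% and 6.06% of all genes. Without wild-type replicate 1, 39 were called higher and 0 lower, against 2.82% and 0.594%. The same filter applied, so genes of this list could also pass it through the libraries where they are high. Trp73, called there, was at 0.985 and 0.724 FPKM in wild-type replicates 5 and 6. The counts are no support for such genes, which were not set apart in this list. The list's 13 tested regulators of multiciliated cells had a median of 0.49. Ccdc67, a gene of the deuterosome that amplifies centrioles, was at 2.51, 1.34 and 1.38 FPKM in wild type and at 4.11, 4.90 and 5.37 FPKM in knockout (1.099, SE 0.194, limma adjusted p = 0.208, and 0.0113 without wild-type replicate 1). Myb, which acts early in multiciliated cell differentiation, was at 5.33, 2.18 and 2.33 FPKM and at 6.68, 8.10 and 6.87 FPKM (limma adjusted p = 0.308 and 0.00958). Ak8, an adenylate kinase of the axoneme, was at 6.43, 1.97 and 2.16 FPKM and at 12.01, 13.999 and 8.80 FPKM (limma adjusted p = 0.306 and 0.0088). In all 3 the knockout libraries lay above wild-type replicate 1.

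In the single cells, 3 of 127 kept cells had many more axoneme genes detected than any other. TPM is a transcript share scaled to a fixed total, and a member counts as detected at a TPM of at least 1. Of the 79 members, 68 were detected in at least 1 kept cell. The number detected per cell had a lowest value of 0, a median of 3 and a highest of 24 in wild-type cells, and of 0, 4 and 52 in cells labelled knockout. Cells labelled knockout also had more genes detected (median 3580, against 3130.5) and less of their TPM in ERCC spike-ins (6.28%, against 13.2%). No test compares the genotypes, since each was captured on 1 chip.

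**Figure D4:**
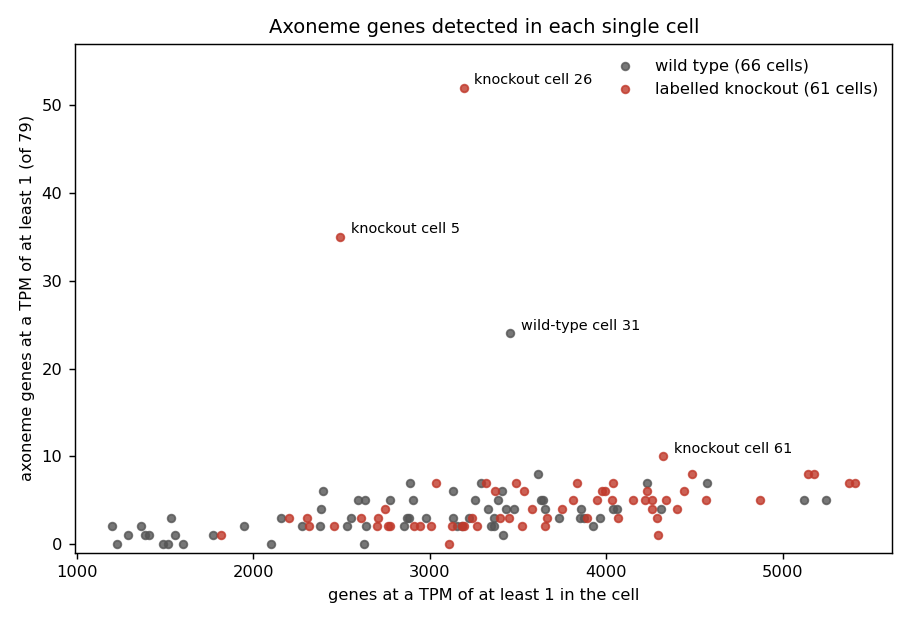
Each point is 1 kept cell; the horizontal axis gives the number of genes detected and the vertical axis the number of members detected, of 79. Knockout cell 26 (52 members), knockout cell 5 (35) and wild-type cell 31 (24) stand above the others, of which the highest has 10. They had 3192, 2493 and 3455 genes detected, where the medians were 3580 in cells labelled knockout and 3130.5 in wild-type cells.

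These 3 cells were singled out after their values were seen; cell numbers follow the order of the sample list. Wild-type cell 31 had 24 members detected and a summed member TPM of 1260, cell 26 labelled knockout had 52 and 4918, and cell 5 labelled knockout had 35 and 6889. By summed TPM cell 31 did not stand apart: wild-type cell 32, with 5 members detected, reached 1747, and cell 29 labelled knockout, with 7, reached 1390. The cell with the next highest number, cell 61 labelled knockout, had 10. Other cilium genes from the list used for bulk, of which 66 are in the tables, were detected at 27, 31 and 25 in the 3 cells, against medians of 3 in wild-type cells and 4 in cells labelled knockout. Foxj1 was at 24.4 TPM in wild-type cell 31, at 0.07 TPM in cell 26 and at 0 in cell 5, and no further kept cell had it at a TPM of 1. Markers of other cell types were present beside the axoneme genes. Scgb1a1 was at 296489 TPM in cell 31, 463191 TPM in cell 26 and 8596 TPM in cell 5, where the medians over all kept cells were 307204 in wild type and 332786 in those labelled knockout. Cell 5 held Sftpc, a surfactant gene of alveolar type 2 cells, at 168375 TPM and Lamp3 at 75.6 TPM, while Sftpc was at 2.98 and 4.35 TPM in cells 31 and 26. Whether more than 1 cell was captured in a well was not tested; per the labels' protocols wells were inspected for doublets.

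**Figure D5:**
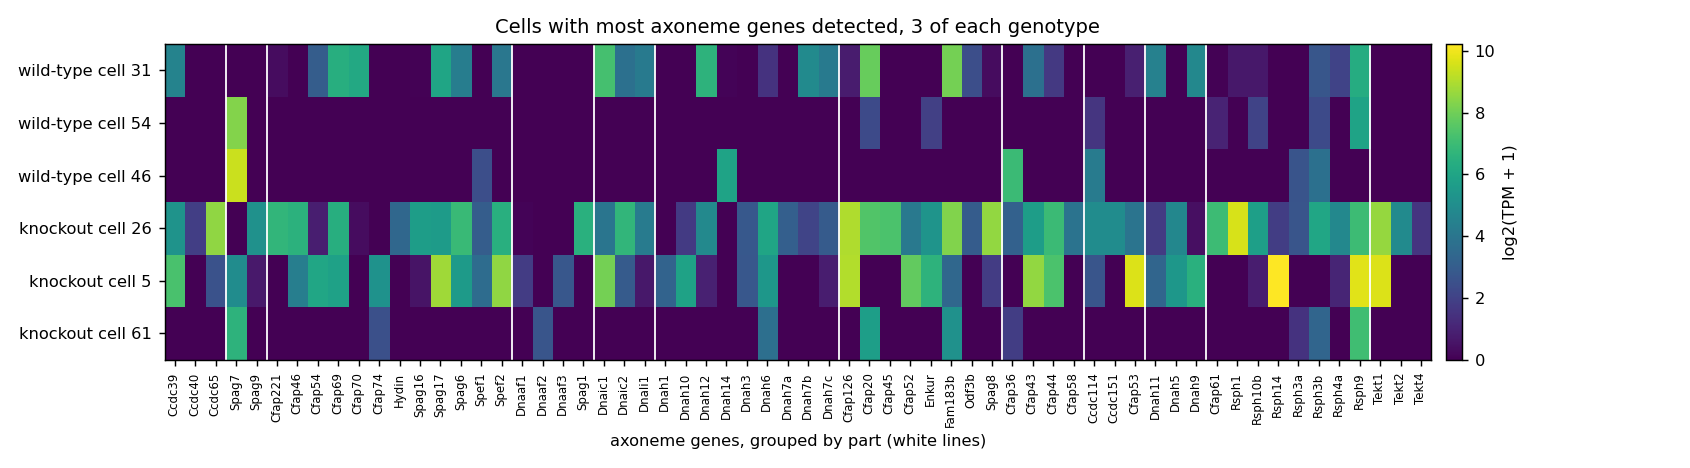
Colour gives log2(TPM + 1) of 62 members (columns, grouped by part between white lines) in the 3 cells of each genotype with most members detected (rows). Wild-type cell 31 and knockout cells 26 and 5 carry members from most parts, whereas the other 3 rows show few, among them Spag7 and Rsph9.

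All 3 cells shared 14 members: Ccdc39, Cfap43, Cfap44, Cfap69, Dnah6, Dnah11, Dnaic1, Dnaic2, Fam183b, Rsph4a, Rsph9, Spag6, Spag17 and Spef2. They come from the motors, ruler, spokes, central pair and doublet interior, and none is a tektin or an assembly factor. Cell 26 held 21 of the 24 members of cell 31 (87.5%, and 40.4% of its own 52), and 28 of the 35 members of cell 5 (80%, and 53.8% of its own). The levels differed widely even for shared genes: Fam183b was at 269, 311 and 9.58 TPM in cells 31, 26 and 5, Dnaic1 at 147, 14.7 and 268 TPM, and Rsph9 at 78.6, 129 and 862 TPM. Tekt1 was at 0, 394 and 834 TPM, Rsph1 at 0.58, 787 and 0 TPM, and Rsph14 at 0, 2.60 and 1198 TPM. By part, cell 26 held 8 of 8 interior and tip genes, 8 of 9 spoke genes and 3 of 5 tektins, and cell 31 held 3 of 3 intermediate and light intermediate chains and 0 of 5 tektins.

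Of the 68 detected members, 22 were detected only in these 3 cells, 38 in them and in other cells, and 8 only in other cells. For 33 members over 90% of the TPM summed over kept cells lay in the 3 cells, among them Dnaic2, Dnali1, Dnah5, Dnah9, Dnah11, Rsph1, Tekt1, Spag17 and Fam183b (94.4%). Odf3b and Enkur, both without overlap in bulk, were among those that differed: 3.59% and 24.1% of their TPM lay there. So were Tekt4 (1.11%) and Ccdc114 (8.56%). Without the 3 cells, 35 members were detected in wild-type cells and 36 in those labelled knockout, in place of 47 and 64. The 3 cells were chosen for their number of members detected, so members seen in few cells tend to fall there by construction. Rsph1 and Ccdc151, for example, were detected in 1 cell only. These counts are a description.

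The 8 members detected in the largest share of cells were Spag7, Cfap20, Dnah14, Cfap36, Rsph3b, Ccdc114, Spag9 and Rsph3a, of which Spag7, Cfap36, Rsph3b and Rsph3a also lay outside the shared order in bulk. Spag7 was detected in 42.4% of wild-type cells (28 of 66; exact binomial 95% interval 30.3% to 55.2%) and 62.3% of those labelled knockout (38 of 61; 48.96% to 74.4%). Cfap20 was detected in 39.4% (27.6% to 52.2%) and 54.1% (40.9% to 66.9%). Cfap36 was detected in 19.7% and 37.7%, Rsph3b in 19.7% and 36.1%, Spag9 in 21.2% and 31.1%, Rsph3a in 10.6% and 16.4%. Dnah14 was detected in 31.8% and 32.8% and Ccdc114 in 24.2% and 29.5% of cells, with nearly none of the summed Dnah14 TPM in the 3 cells (0.00908%). Intervals cover counting error only. A larger share of the cells labelled knockout held 58 of the 68 members (85.3%), where 71.4% of all 17743 detected genes had a larger share there. Of the 3 cells with most members, cells 26 and 5 are labelled knockout, and 22 members were detected only in those 3. The part of these cells, and of the depth of the chips, in these shares was not tested.

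Dnah5 was detected in 0 of 66 wild-type cells, which allows a share of up to 4.55% at 3 counts of the total (exact binomial upper limit 5.44%), and in 2 of the 61 labelled knockout (3.28%, with an interval of 0.40% to 11.3%). Dnaic2 was detected in 1 and 2 cells, Tekt1 in 1 and 2, Fam183b in 1 and 3, Ccdc40 in 0 and 1, and Rsph14 in 0 and 4 cells. Drc1, at 15.4 FPKM on average in the bulk knockout libraries, was detected in no kept cell. The 11 members detected in no kept cell were Cfap57, Dnah8, Drc1, Rsph6a, Spag4, Spag6l, Spag11a, Spag11b, Tekt5 and the opposite-strand Dnah2os and Spag17os.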

How the data were processed

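The bulk table deposited by the authors holds FPKM values; the submitters' processing notes name TopHat, Bowtie2 and Cufflinks and the build mm10. Its lowest value is 0.01, and 12 genes with an entry marked in place of a value were left out. The single-cell tables deposited by the authors hold TPM values; the same notes name RSEM 1.2.20, Bowtie 1.1.1 and GRCm38. Neither unit keeps read counts, so depth is unknown, and no source used here says whether counting used strand.

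Bulk values, as log2(FPKM + 1), were fitted with limma 3.58.1 (R 4.3.3; eBayes, trend, robust; two-sided; no covariate) over the 11957 genes that reached 1 FPKM in 3 or more of the 6 libraries. Benjamini-Hochberg adjustment ran over all of these, with a threshold of 0.05. On this scale the changes of low genes come out too small. The fit was tested on simulated data with known fold changes in a seeded set of genes. An exact permutation test of 3 against 3 libraries cannot go below p = 0.1. Left out were cells with a debris or valve remark and cells in which fewer than 1000 genes were detected; 2 cell samples labelled knockout without a matched column are not analysed here.

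Named are the 3 members of highest mean FPKM in each part, the 5 of smallest p, those of a sign opposite to the median, the 8 detected in most cells and the 3 other cilium genes of smallest p; further genes were chosen after their values were seen. The members, parts and lists were chosen with earlier results of these data known. Gene coordinates are those of GENCODE M21 on the mm10 assembly, 1-based. The closing section gives the values under other settings.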

Additional observations from a re-analysis of the deposited data

Results flagged for a closer look

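The off-chip controls of the chip labelled knockout are in no comparison above. In the positive control 18 members were at a TPM of at least 1, with 7953 genes detected, and in the negative control 0 members were, with 2 genes detected and nearly all TPM in spike-ins. In the positive control Fam183b was at 31.7 TPM, Cfap20 at 21.8 TPM, Cfap126 at 16.6 TPM, Enkur at 10.7 TPM and Foxj1 at 1.12 TPM. The labels do not say what RNA it held.

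The 13 cells left out by the cell filter were also compared with the negative control. The most members at a TPM of at least 1 in any of them was 7, in a cell labelled knockout with a remark, and Foxj1 was at 0 in all 13.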

How the results depend on the processing

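No paired analysis was possible because the bulk groups share no replicate number. With all libraries the count of members called was 0 under each other setting except estimated library weights, where it was 49, and the other cilium genes called were then 48. Leaving out 1 library at a time gave 0 to 42 members called, 0 to 39 other cilium genes called, 11 to 53 members without overlap and medians of 0.79 to 1.53; all upper ends arose when wild-type replicate 1 was left out, and 42 members did not overlap when knockout replicate 10 was. The median was 0.39 with a pseudocount of 10, which shrinks low values by construction, and the members without overlap were 0 after rescaling to a common sum. Of 468 values of 36 named members under 13 settings, 4 changed sign: Spag9 was at 0.20 with library weights and ranged from -0.20 (replicate 5 left out) to 0.20 (replicate 1 left out) over the sets of 5 libraries, with 0.012 when knockout replicate 8 was left out, and Spag7 ranged from -0.14 to 0.034 (replicate 6 left out). The cause was not tested. In 57 of these values a member passed the threshold, 31 with library weights and 26 when wild-type replicate 1 was left out. Over members with a mean of at least 5 FPKM, added after seeing the data, 0 were called with 6 libraries and 10 did not overlap. In cells labelled knockout, members detected were 36 without the 3 cells with most members, a setting added after seeing the data. Genes detected per cell limit the single-cell shares.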
